A study of Mus musculus with 2 samples.

Results

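The miR-26 family of the mouse comprises 3 genes, Mir26b, Mir26a-1 and Mir26a-2, and all 3 were among the 1973 microRNA genes measured in the embryonic intestine. They were picked by name, as the rows whose Ensembl identifiers GENCODE assigns to these symbols on GRCm38. Small RNA with inserts under 30 bases came from the intestine of B6NCrl mouse embryos at 14.5 days of development, in 2 libraries that the labels call biological replicates 1 and 2 of one group. The labels name no treatment and no genetic change, and there is no second condition to compare with. The labels speak of a single intestine per sample, yet record its sex as pooled from both sexes, which the counts cannot settle. Replicate 1 was collected on day 17 of the month and replicate 2 on day 15, so collection day and replicate cannot be told apart.

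A microRNA is cut from a hairpin precursor into a short mature strand, which guides repression of messenger RNAs that pair with its seed, bases 2 to 8. A hairpin can give a mature strand from its 5′ arm (5p) and one from its 3′ arm (3p). Each miR-26 gene lies inside a gene for a small phosphatase of the carboxy-terminal domain of RNA polymerase II. These host phosphatases, Ctdsp1, Ctdsp2 and Ctdspl, are known to help silence neuronal genes outside the nervous system, and miR-26 is known to be broadly expressed and to target Ezh2, the methyltransferase of the Polycomb complex.

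The mature strands show what the genes have in common and where reads can tell them apart. They are from RefSeq (GRCm38.p6), 5′ to 3′, with the seed in capitals.
miR-26b-5p (Mir26b): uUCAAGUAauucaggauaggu
miR-26a-5p (Mir26a-1 and Mir26a-2): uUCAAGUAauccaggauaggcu
miR-26b-3p (Mir26b): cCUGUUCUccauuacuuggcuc
miR-26a-1-3p (Mir26a-1): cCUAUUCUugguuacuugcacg
miR-26a-2-3p (Mir26a-2): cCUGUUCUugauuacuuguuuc

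All 3 genes share the 5p seed UCAAGUA, and among the 1738 mature strands in the RefSeq microRNA table those of no other gene had it. The 5p strand of miR-26a is the same in Mir26a-1 and Mir26a-2. Counting positions from 1 at the 5′ end, miR-26b-5p differs from it by C11U and C21U and is 21 bases long against 22. The 3p strands differ more. The 3p strands of the miR-26a genes differ at 6 of 22 positions, A4G, G11A, C19U, A20U, C21U and G22C from Mir26a-1 to Mir26a-2. The first of these lies in the seed, so that the 3p seed of Mir26a-1 stands alone while Mir26a-2 and Mir26b share CUGUUCU.

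The hairpins are shown whole, with both mature strands in capitals, because the shared stretch of the miR-26a copies reaches past the mature strand.
Mir26b: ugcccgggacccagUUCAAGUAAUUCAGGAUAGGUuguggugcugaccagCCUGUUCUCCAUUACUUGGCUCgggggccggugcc
Mir26a-1: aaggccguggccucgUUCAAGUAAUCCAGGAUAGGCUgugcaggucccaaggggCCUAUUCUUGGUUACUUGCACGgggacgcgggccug
Mir26a-2: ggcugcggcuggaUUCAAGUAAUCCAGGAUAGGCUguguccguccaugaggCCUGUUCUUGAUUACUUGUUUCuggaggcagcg

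The longest identical stretch of the Mir26a-1 and Mir26a-2 hairpins was 25 bases. It began at the first base of miR-26a-5p and ended 3 bases beyond its last. Mir26b had no more than 11 bases in a row in common with Mir26a-1 and 10 with Mir26a-2. Of the 20-base windows along each hairpin, 6 of 71 in Mir26a-1 and 6 of 65 in Mir26a-2 also stood in the other copy, and none of the 66 in Mir26b stood in any other of the 2202 annotated microRNA hairpins. At 18 bases the shared windows numbered 8 in each copy and at 25 bases 1, again with none in Mir26b. The map of the hairpins places all shared windows on the 5p strand and the bases just after it. Windows were searched in annotated microRNA hairpins and not in the whole genome.

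**Figure D1:**
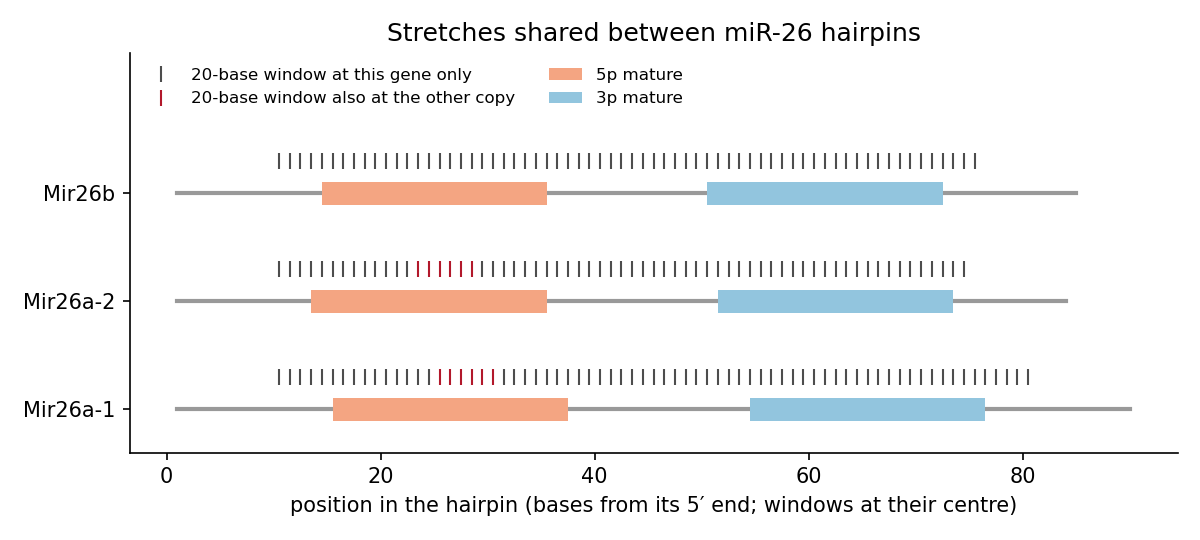
Hairpins of the 3 miR-26 genes, drawn to scale in bases from the 5′ end, with the 5p and 3p mature strands as boxes. Ticks mark the centres of all 20-base windows; the 6 windows that Mir26a-1 and Mir26a-2 share lie over the 5p strand, and Mir26b shares none.

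All 3 genes lie on the strand of their host. Mir26b (ENSMUSG00000065468.1) occupies chr1:74394310-74394394 in intron 4 of Ctdsp1-201 and intron 3 of Ctdsp1-202, a short intron of 564 bases. Mir26a-1 (ENSMUSG00000065513.1) occupies chr9:119031796-119031885 in a 3283-base intron of Ctdspl, which is intron 5 of Ctdspl-201. Mir26a-2 (ENSMUSG00000065430.1) occupies chr10:126995530-126995613 in intron 5 of Ctdsp2-202, which is 1946 bases long. Neither Mir26b nor Mir26a-1 overlaps an exon of its host. The last base of Mir26a-2 is also the first base of Ctdsp2-201 and Ctdsp2-203, shorter annotated transcripts that start at 126995613. The tables hold microRNA genes and no host messenger RNA, so the hosts' own levels were not analysed here.

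The libraries held 15090126 and 3903472 reads on the strand of a gene, 57.2% and 55.7% of the reads in their tables, so that replicate 1 was 3.87 times deeper. Levels below are CPM, counts on the gene's strand scaled to a library total of 1000000; each read is 1 whole short RNA, so no correction for gene length applies. With a minimum of 10 counts in both libraries, 363 genes were detected, the 3 miR-26 genes among them. Marker microRNAs were set beside the tissue label. All 4 intestinal epithelial genes (summed 8980 and 11362 CPM in replicates 1 and 2), all 5 miR-200 genes and both smooth muscle genes were detected. Of 14 measured markers of liver, striated muscle, neurons, blood and endothelium 7 were detected, with a larger sum than the intestinal epithelial genes, 24168 and 25117 CPM. Nearly all of it was the endothelial Mir126a (23478 and 24174 CPM). The next were Mir223 of leukocytes (379 and 472 CPM), the erythroid Mir451a (231 and 374 CPM) and the liver gene Mir122 (39.8 and 51.0 CPM). The others detected were the erythroid Mir144 (23.1 and 28.7 CPM), Mir206 of striated muscle (10.5 and 8.97 CPM) and the neuronal Mir9-3 (5.30 and 7.69 CPM). Mir133a-1, Mir124a-2, Mir124a-3 and Mir9-2 had no counts. Reads with several alignments were not counted for any gene, so a lack of counts in such numbered genes does not show absence. Mir133a-1 and Mir133a-2, for example, share a stretch of 31 bases. The part of these other cell types in the miR-26 counts was not tested.

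By reads that could be given to a gene, Mir26b was one of the most abundant microRNA genes of the embryonic intestine. The 2 miR-26a genes stood in the lower part of the detected genes. Mir26b had 483224 counts in replicate 1 and 127499 in replicate 2. These are 32023 CPM (Wilson 95% interval 31934 to 32111) and 32663 CPM (32487 to 32840), a mean of 32343 ± 453 CPM (SD, n = 2). It ranked 6 in replicate 1 and 5 in replicate 2 among the detected genes, and the most abundant gene was 4.85 times higher.

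Mir26a-2 had 841 and 238 counts, or 55.7 CPM (52.1 to 59.6) and 61.0 CPM (53.7 to 69.2), a mean of 58.4 ± 3.70 CPM (SD, n = 2). It ranked 228 and 226. Mir26a-1 had 215 and 67 counts, or 14.2 CPM (12.5 to 16.3) and 17.2 CPM (13.5 to 21.8), a mean of 15.7 ± 2.06 CPM (SD, n = 2). It ranked 271 and 268. The order Mir26b, Mir26a-2, Mir26a-1 was the same in both libraries, and neither the libraries' values nor the counting intervals of neighbours in it overlapped. No gene of the family had a count on its opposite strand, where 0 counts leave room for a level of at most 0.199 and 0.769 CPM in the deeper and the shallower library (3 counts of the total).

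**Figure D2:**
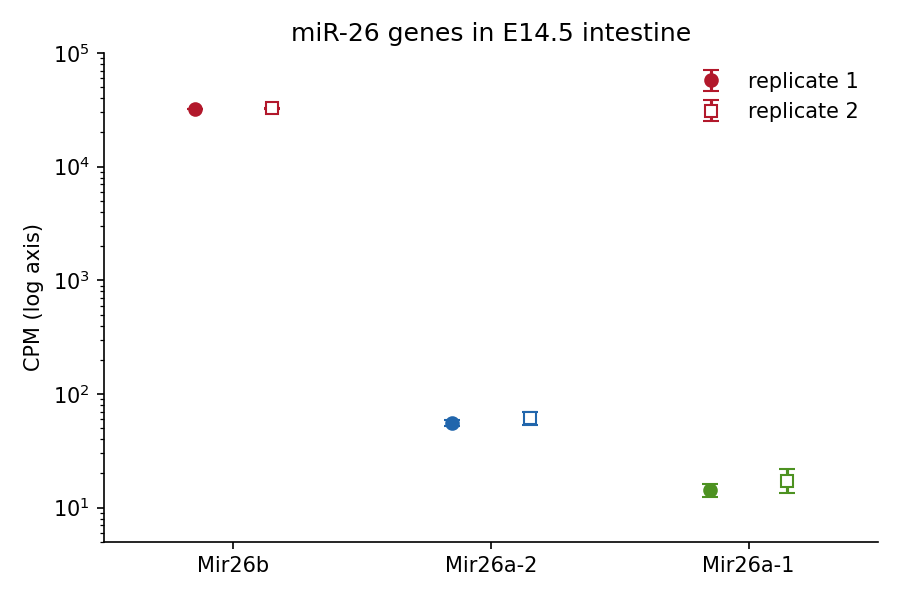
CPM of Mir26b, Mir26a-2 and Mir26a-1 on a log axis in replicate 1 (filled circles) and replicate 2 (open squares), with Wilson 95% counting intervals. Mir26b lies at 32023 and 32663 CPM and both miR-26a genes below 70 CPM.

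Reads given to the 3 genes summed to 3.21% of the counts in replicate 1 and 3.27% in replicate 2, a mean of 3.24 ± 0.0459% (SD, n = 2). Reads with several alignments, which miR-26a-5p can give, are left out of this sum and of the shares that follow. Mir26b alone made up 99.8% of the family's counts in each library. Mir26a-2 gave 0.174% and 0.186% of them and Mir26a-1 0.0444% and 0.0524%. The sum of counts given to the 3 genes is thus, within a fraction of a percent, the count of the single-copy gene.

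Mir26b exceeded the summed miR-26a copies 458-fold in replicate 1 (95% counting interval 431 to 487) and 418-fold in replicate 2 (374 to 469). On the log2 scale the ratio was 8.84 and 8.71, a mean of 8.77 ± 0.09 (SD, n = 2), and the libraries differed by 0.13. Between the copies, Mir26a-2 exceeded Mir26a-1 3.91-fold (3.36 to 4.57) and 3.55-fold (2.70 to 4.73). These last intervals overlap widely, so that a change of that ratio between the libraries was not detectable at this depth. No test of the ratios was run, as an exact test over 2 libraries cannot reach 0.05.

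The tables count for a gene only reads that could be given to it. Reads with several alignments stood in a row of their own, with 6977350 reads in replicate 1 and 1864809 in replicate 2, or 26.5% and 26.6% of the reads in the tables. A read of miR-26a-5p of up to 25 bases that starts at the annotated first base matches both copies over its whole length. How many of the reads with several alignments were miR-26a-5p cannot be read from the tables, nor which arm the counted reads of Mir26a-1 and Mir26a-2 came from. The copies' values are therefore counts of reads that were told apart and no measure of miR-26a-5p. The part of shared sequence in the 458-fold and 418-fold ratios was not tested. For scale, the counts of Mir26b equalled 6.93% and 6.84% of the reads with several alignments in replicates 1 and 2. If every such read were added to the miR-26a copies, an outer bound chosen after the data had been seen, the copies would exceed Mir26b 14.4-fold and 14.6-fold. The tables thus do not fix which of miR-26a and miR-26b was more abundant.

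Other families that join copied and single-copy genes show where miR-26 stands. A list of 12 families held 56 genes, of which 53 were matched to a row by symbol; Mirlet7f-1, Mirlet7e and Mir497a were not. The list was made by gene names and not by a search for seeds, so that a family may have further genes. Folds and ranks below hold for the genes listed. Copied genes are those at different loci named for the same main mature strand. In RefSeq every family but miR-133 held copied genes with an identical mature strand; Mir133a-1, Mir133a-2, Mir30b, Mir30d and Mir497a had no mature entry. The copied genes summed to fewer counts than the single-copy genes in 11 of 12 families, in each library. Among the 10 families with at least 10 counts in both classes and both libraries the number was 9. No test was run over families, and the direction in miR-26 is one of the 11.

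The miR-26 gap was the widest of the 11 families with counts in both classes and both libraries. In miR-30 the single-copy Mir30a, Mir30b, Mir30d and Mir30e exceeded Mir30c-1 and Mir30c-2 376-fold and 354-fold in replicates 1 and 2, close to miR-26. These folds compare sums, and families differ in the number of genes summed. The median per single-copy gene in miR-30 was 84413.5 and 24313 counts in replicates 1 and 2, against 483224 and 127499 for Mir26b. Per copied gene the medians were 649 and 198.5 in miR-30 and 528 and 152.5 in miR-26. In miR-29 the folds were 138 and 85.8, from no more than 13 counts for the copies, and in let-7 53.9 and 47.7. The folds were 17.9 and 21.3 for Mir107 over the Mir103 genes, 5.05 and 5.34 in miR-181 and 4.02 and 4.21 for Mir125a over the Mir125b genes. Mir7b exceeded its copies 4.12-fold and 3.06-fold, and the folds were 1.81 and 1.87 in miR-15/16 and 1.75 and 1.59 in miR-19. The miR-25/92 family ran the other way, with folds of 0.310 and 0.295, as Mir92-1 alone had 50044 and 13987 counts. In miR-133 no gene had more than 9 counts. The plot of families shows that the miR-26 and miR-30 copies lie at nearly the same level, as do their single-copy sums.

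**Figure D3:**
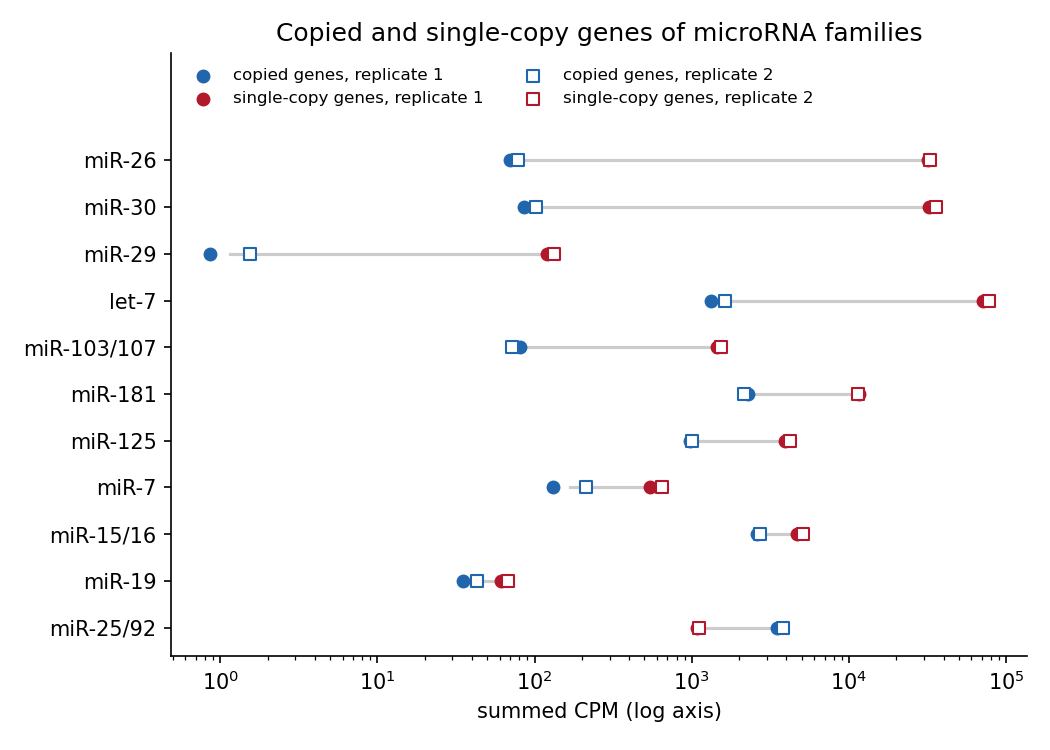
Summed CPM (log axis) of copied genes (blue) and single-copy genes (red) in 11 microRNA families, ordered by the ratio, for replicate 1 (filled circles) and replicate 2 (open squares); miR-133 is left out because its copies had no count in replicate 2. The miR-26 pair is the widest and miR-25/92 is the only one drawn here in which the copied genes lie higher.

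The longest identical stretch was also measured for the copied pairs, with their summed level in replicate 1. Mir92-1 and Mir92-2 shared 22 bases, the shortest stretch, and had the highest sum, 3484 CPM. At the other end Mir133a-1 and Mir133a-2 shared 31 bases, the longest stretch, and had the lowest sum, with 1 count. Between these ends pairs with the same stretch differed widely. At 23 bases the Mir16 pair had 2589 CPM, the Mirlet7a pair 206 CPM and the Mirlet7c pair 96.5 CPM. At 24 bases the Mir125b pair had 980 CPM and the Mir7 pair 131 CPM. At 25 bases the miR-26a pair had 70.0 CPM, the Mir19b pair 34.8 CPM and the Mir29b pair 0.861 CPM. Among the pairs that share this length, miR-26a thus stood highest. The Mir181b pair (26 bases) had 1106 CPM and the Mir103 pair (27 bases) 80.8 CPM. At 28 bases the Mir181a pair had 1188 CPM and the Mir30c pair 86.0 CPM. The abundance of the mature strands themselves differs between families, and its part in these sums was not tested.

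Across all genes matched to RefSeq by symbol (916 of 1973), 87 carry a mature strand that the table also gives for another gene and 829 do not. Of the former 49 were detected, with a median of 64.9 CPM and a range of 2.20 to 3450 CPM. Of the latter 285 were detected, with a median of 160 CPM. Both miR-26a genes are among the 49 detected genes with a repeated strand. Mir26a-2 was higher than 22 of the 49 and Mir26a-1 higher than 12, so that neither was at an end of that class. Mir26b, itself among the 285 whose strands RefSeq gives for no other gene, was higher than 280 of them. It was also higher than all 49 with a repeated strand. These counts describe genes that passed the minimum and were not tested. RefSeq gives no mature strand in common for Mirlet7a-1 and Mirlet7a-2, although their hairpins share 23 bases. The 829 may thus include genes with a repeated strand. Mir143, the most abundant detected gene (mean 157004 CPM), is in neither class.

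The genes most like each member in level were found by the distance of log2(CPM + 1) over the 2 libraries, which says that levels are near each other and nothing of shared control. Nearest to Mir26b were Mir17 (30357 ± 246 CPM), Mir99a (28946 ± 704 CPM), Mir130a (28698 ± 169 CPM), Mir10b (35182 ± 5748 CPM) and Mirlet7g (37548 ± 2206 CPM), as mean ± SD, n = 2. Mir17 belongs to the proliferation-associated miR-17-92 cluster and Mir10b to a Hox cluster. Mir17 had 30183 and 30530 CPM in replicates 1 and 2, below Mir26b in both. Mir99a and Mir130a were likewise lower in both libraries and Mirlet7g higher in both. Mir10b had 39246 and 31117 CPM, a range that takes in both values of Mir26b, so that Mir26b and Mir10b do not differ in level beyond their spread.

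Nearest to Mir26a-2 were Mir18b (60.4 ± 6.19 CPM), Mirlet7c-1 (63.2 ± 2.94 CPM) and Mir155 (62.8 ± 8.94 CPM), again as mean ± SD, n = 2. The range of Mir26a-2 overlapped those of Mir18b and Mir155 and fell just short of that of Mirlet7c-1, itself a copied gene. Nearest to Mir26a-1 were Mir193a and Mir8112, which had the same 235 and 67 counts although they lie on chromosomes 11 and 6, and Mir8114 (15.0 ± 0.466 CPM). All 3 ranges overlapped that of Mir26a-1. At 67 counts in replicate 2 its level cannot be set apart from theirs.

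**Figure D4:**
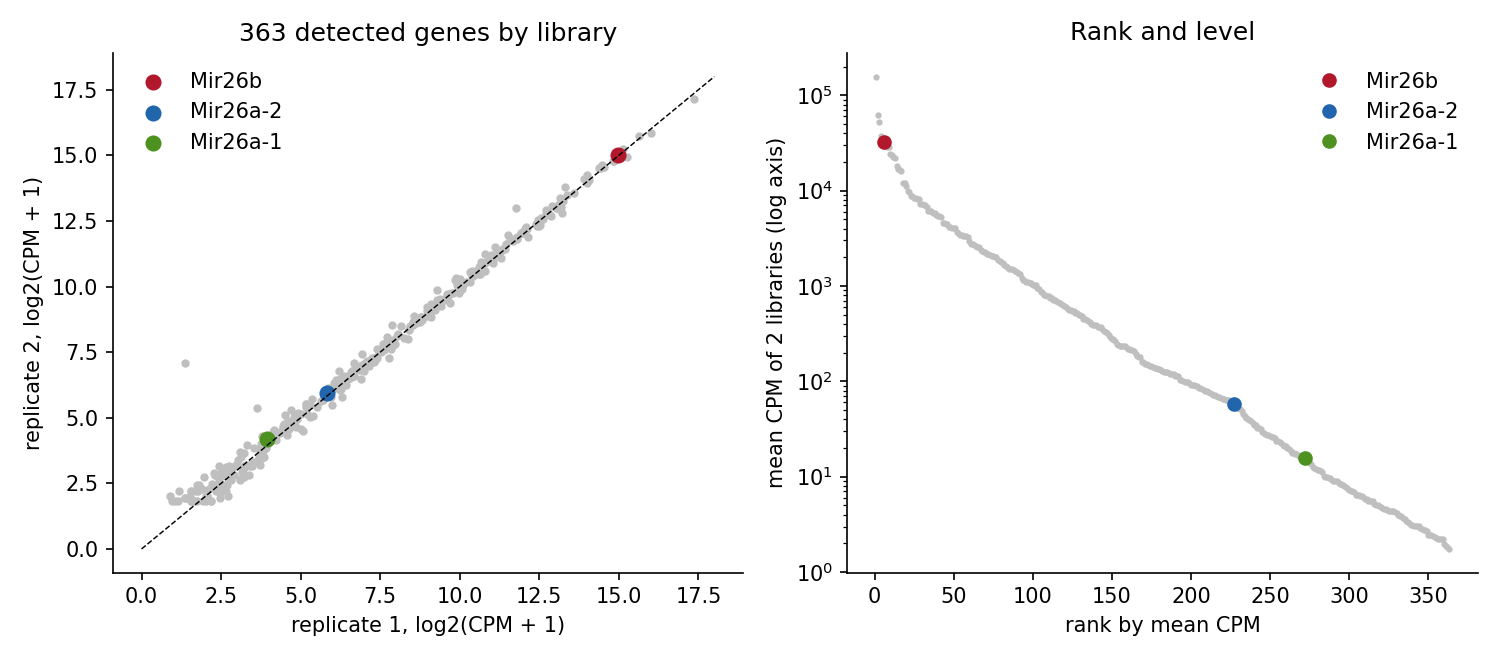
Left, log2(CPM + 1) of the 363 detected genes (grey) in replicate 1 against replicate 2, with the line of equal level dashed. Right, mean CPM on a log axis against rank; Mir26b stands at rank 6, Mir26a-2 at 227 and Mir26a-1 at 272.

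Mir26b differed little in level between the libraries. Written as log2 of replicate 2 over replicate 1, its difference was 0.03 (95% counting interval 0.02 to 0.04), a 1.02-fold change, and 35 of the 363 detected genes had a smaller one. With TMM library sizes, which scale by the bulk of genes, 82 had a smaller one. Over all detected genes the median absolute difference was 0.15. For each of the 363 genes a two-sided exact test on the binomial distribution asked whether its counts departed from the ratio of the library sizes, and p-values were adjusted over all of them by Benjamini and Hochberg's method. This compares these 2 libraries only, and 43.8% of genes passed, 29.8% as higher and 14% as lower in replicate 2. A difference of at least 1.2-fold was reached by 30%.

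Mir26b passed that test (adjusted p = 1.52e-09 by the exact binomial test), as its counts are large enough to resolve a 1.02-fold difference. The sign depended on the scaling: with TMM library sizes the log2 difference was -0.05 (adjusted p = 8.09e-32 by the exact binomial test), and with all reads of the table as the denominator -0.01 (adjusted p = 0.0672 by the exact test). Its level thus has no settled direction between the libraries. Of the genes that passed, 108 were higher and 51 lower in replicate 2, and with TMM library sizes 58 were higher and 84 lower.

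Neither miR-26a gene passed. Mir26a-2 had a log2 difference of 0.13 (-0.08 to 0.34, adjusted p = 0.349 by the exact binomial test) and Mir26a-1 one of 0.27 (-0.15 to 0.67, adjusted p = 0.293 by the exact binomial test). Both intervals include no change, and that of Mir26a-1 also allows a 1.5-fold difference. Mir26a-1 was just past the 1.2-fold mark in replicate 2, which 21.5% of genes passed upwards and 8.54% downwards. It fell short of the mark with all reads as the denominator (log2 difference 0.230), without the most abundant gene in the total (0.231) and with TMM library sizes (0.186). The copies summed gave 0.16 (-0.03 to 0.34). The plot of differences sets these intervals above the differences of all detected genes.

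**Figure D5:**
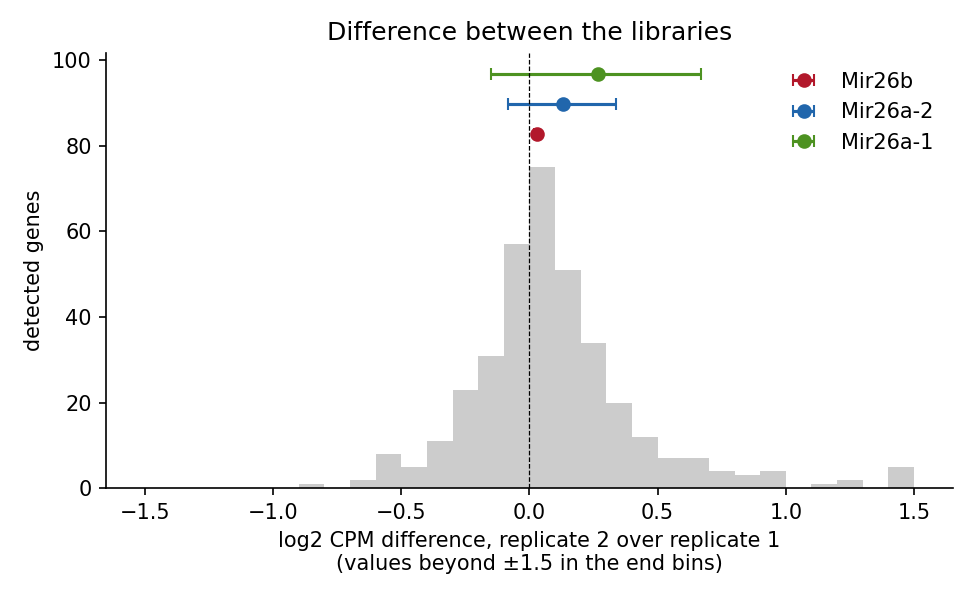
Histogram of the log2 CPM difference, replicate 2 over replicate 1, of the 363 detected genes in bins of 0.1, with values beyond ±1.5 placed in the end bins. The points above it show Mir26b, Mir26a-2 and Mir26a-1 with 95% counting intervals, at heights without meaning; the interval of Mir26b is narrower than its point.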

How the data were processed

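The 2 small RNA libraries of embryonic intestine were analysed from the deposited count tables, which give whole-number counts of reads per gene on both strands together, on that of the gene and on the opposite one. This order of the columns was read from the values. Per the file headers' companion text, the authors aligned to mm10 and used GENCODE M4; the aligner, trimming and counting program are not given in the sources used here. Unaligned reads (12.4% and 13.8%), reads with several alignments and reads on no gene (2.20% and 2.10%) entered only the total of all reads. PCR copies count as reads, and intervals and limits cover counting error only; spread between the libraries may be technical.

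Counts on the gene's strand were scaled to CPM. Symbols and coordinates came from GENCODE M21 (1894 of 1973 identifiers matched), sequences from RefSeq. Exact binomial tests and Wilson and Clopper-Pearson intervals were computed in scipy 1.17.1, TMM factors in edgeR 4.0.16. The binomial test was run on simulated counts with set changes and counting error alone, which lack any further spread between real libraries. Named genes were the members, the genes of the 12 families, and the 5 (Mir26b) or 3 (miR-26a genes) nearest in level. Members and lists were chosen with earlier results of these data known. Alternatives were other denominators, TMM, both strands, other count minimums and each library alone.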

Additional observations from a re-analysis of the deposited data

How the results depend on the processing

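The share of the 3 miR-26 genes and the level of Mir26b moved with what they were divided by. Over all reads in the table they were 1.83% and 18268 CPM, without the most abundant gene in the total 3.85% and 38368 CPM, and with both strands counted 3.14% and 31375 CPM, against 3.24% and 32343 CPM. With 1 library left out the share was 3.21% to 3.27% and the level 32023 to 32663 CPM. The log2 ratio of Mir26b over the summed miR-26a copies was 8.71 to 8.84 with 1 library left out, 9.12 against Mir26a-2 alone, and -3.86 when all reads with several alignments were added to the copies, a bound that reverses it by construction. The log2 difference of Mir26b between the libraries reversed to -0.0099 over all reads, -0.0089 without the most abundant gene (adjusted p = 0.105 by the exact binomial test) and -0.0540 with TMM. The family sum did likewise, to -0.0096, -0.0086 and -0.0537. The number of genes past the test stayed between 142 and 169 in 6 alternatives, and the share of these that were higher in replicate 2 was 67.9%, but 56.1% over all reads or without the most abundant gene and 40.8% with TMM. The family count stayed at 11 with both strands, with medians per gene and in each library alone. Of 44 values under alternatives 30 stayed within the spread or counting interval, on the same side of the test or, for numbers of genes and families, close to the main number. Another 7 moved and 7 reversed. No paired analysis was possible because there is 1 group. Depth limits Mir26a-1, with 67 counts in replicate 2.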
